A study of Homo sapiens with 24 samples.

Results

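The 10 genes described here encode BCL2 family proteins that hold a cell back from apoptosis or push it towards death. They were chosen by name from the 25161 gene symbols of a microarray table: the survival genes BCL2, BCL2L1, MCL1 and BCL2A1, the effectors BAX and BAK1, and the BH3-only genes BCL2L11, BBC3, PMAIP1 and BIK. Each gene had 1 row in the table, so all 10 were measured and none was filtered out. RNA levels came from 24 whole-transcriptome microarrays (Clariom D human) of SU-DHL-4, an established diffuse large B-cell lymphoma (DLBCL) line, and DG-75, an established Burkitt's lymphoma (BL) line. Both were exposed for 72 h to DMSO as solvent control, to 1 µM of the SYK inhibitor Entospletinib (Ento), to 0.01 µM of the bivalent BET inhibitor AZD5153 (AZD) or to both at these doses (Ento+AZD). The 8 groups had 3 arrays each, described as biological triplicates, and each comparison of a compound used the DMSO arrays of its own line. Each disease was represented by 1 cell line, so line and lymphoma subtype cannot be told apart.

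BCL2 family proteins decide at the mitochondrial outer membrane whether a cell survives. BAX and BAK1 form pores there that release cytochrome c, survival members bind and restrain them, and BH3-only proteins occupy the survival members or activate the effectors. Germinal centre B cells live on a narrow balance of these proteins, and SU-DHL-4 is known to carry a translocation that places BCL2 beside the immunoglobulin heavy-chain locus. The arrays measured RNA and not protein, and many of these proteins are also regulated after translation.

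RefSeq upstream windows were found for 8 of the 10 members, and those of 3 are shown: BCL2A1, the gene called with the compounds, and BAX and BCL2L11, which separated the lines in opposite directions. These 3 were chosen with levels and motif matches known. They are the 250 bases before the RefSeq start on GRCh38.p14, written 5′ to 3′ on the gene's strand, in lower case with motif matches in capitals. The letters searched on both strands were the E-box CACGTG, the FOXO motif GTAAACA, the GC box GGGCGG and the NF-κB motif.
BCL2A1, chr15:79971197-79971446, minus strand: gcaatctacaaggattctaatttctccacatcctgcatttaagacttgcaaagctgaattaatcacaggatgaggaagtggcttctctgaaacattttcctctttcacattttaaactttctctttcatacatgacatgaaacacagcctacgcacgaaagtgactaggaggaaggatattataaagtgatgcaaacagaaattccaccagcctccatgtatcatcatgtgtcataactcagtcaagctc
BAX, chr19:48954625-48954874, plus strand: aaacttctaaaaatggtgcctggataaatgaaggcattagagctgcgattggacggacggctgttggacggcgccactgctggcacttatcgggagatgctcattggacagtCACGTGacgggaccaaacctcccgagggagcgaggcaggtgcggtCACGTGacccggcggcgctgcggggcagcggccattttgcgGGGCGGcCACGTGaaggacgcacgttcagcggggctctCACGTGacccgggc
BCL2L11, chr2:111120664-111120913, plus strand: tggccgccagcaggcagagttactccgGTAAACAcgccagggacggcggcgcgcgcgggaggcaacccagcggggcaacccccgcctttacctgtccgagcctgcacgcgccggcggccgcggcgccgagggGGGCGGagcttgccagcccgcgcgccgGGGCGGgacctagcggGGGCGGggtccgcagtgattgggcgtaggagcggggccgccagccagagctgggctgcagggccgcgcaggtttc
The BCL2A1 window held no match to the 4 motifs, 2 CG dinucleotides and 38.8% G and C, and 11.4% of the 35116 upstream windows had as little G and C or less. The BAX window held 4 E-boxes, which 5 of the windows (0.0142%) matched or exceeded, while 6.34% had at least 1. The BCL2L11 window held 1 FOXO motif, found in 2.98% of windows, and 3 GC boxes, a motif found in 42.6%. The NF-κB motif was found in 5.21% of windows. Of the members not shown, BCL2 and BCL2L1 held no match, BAK1 held 2 GC boxes, PMAIP1 4 GC boxes and BBC3 1 E-box. These matches are descriptions of sequence and no binding was measured.

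All values are log2 expression after robust multi-array averaging (RMA), so a difference of 1 is a 2-fold change, and levels are compared between arrays for the same gene only. Array medians lay between 4.89 and 5.14, and the median SD of a gene within a group was 0.18 to 0.22. The mean over 7 B-cell markers was 10.12 to 10.74 in SU-DHL-4 arrays and 8.84 to 9.81 in DG-75 arrays. MS4A1, which encodes CD20, was at 11.27 to 11.83 in SU-DHL-4 and 6.22 to 8.0 in DG-75. The 4 T-cell markers averaged 2.49 to 3.04 over all arrays, the 4 myeloid markers 3.93 to 4.44 and the 4 stromal and epithelial markers 4.65 to 5.14. In such bulk RNA, fewer cells expressing a gene and less RNA per cell cannot be told apart.

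Several of these genes held different levels in the 2 lines whatever the exposure. Over all exposures, 5 of 10 members did not overlap between the 12 SU-DHL-4 arrays and the 12 DG-75 arrays, against 9.19% of all rows. BCL2 and BAX were higher in SU-DHL-4 (3.88% of rows separated in this direction), and BCL2L11, PMAIP1 and BIK were higher in DG-75 (5.31%). Thus one survival gene and one effector stood on the SU-DHL-4 side, and 3 of the 4 BH3-only genes on the DG-75 side.

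**Figure D1:**
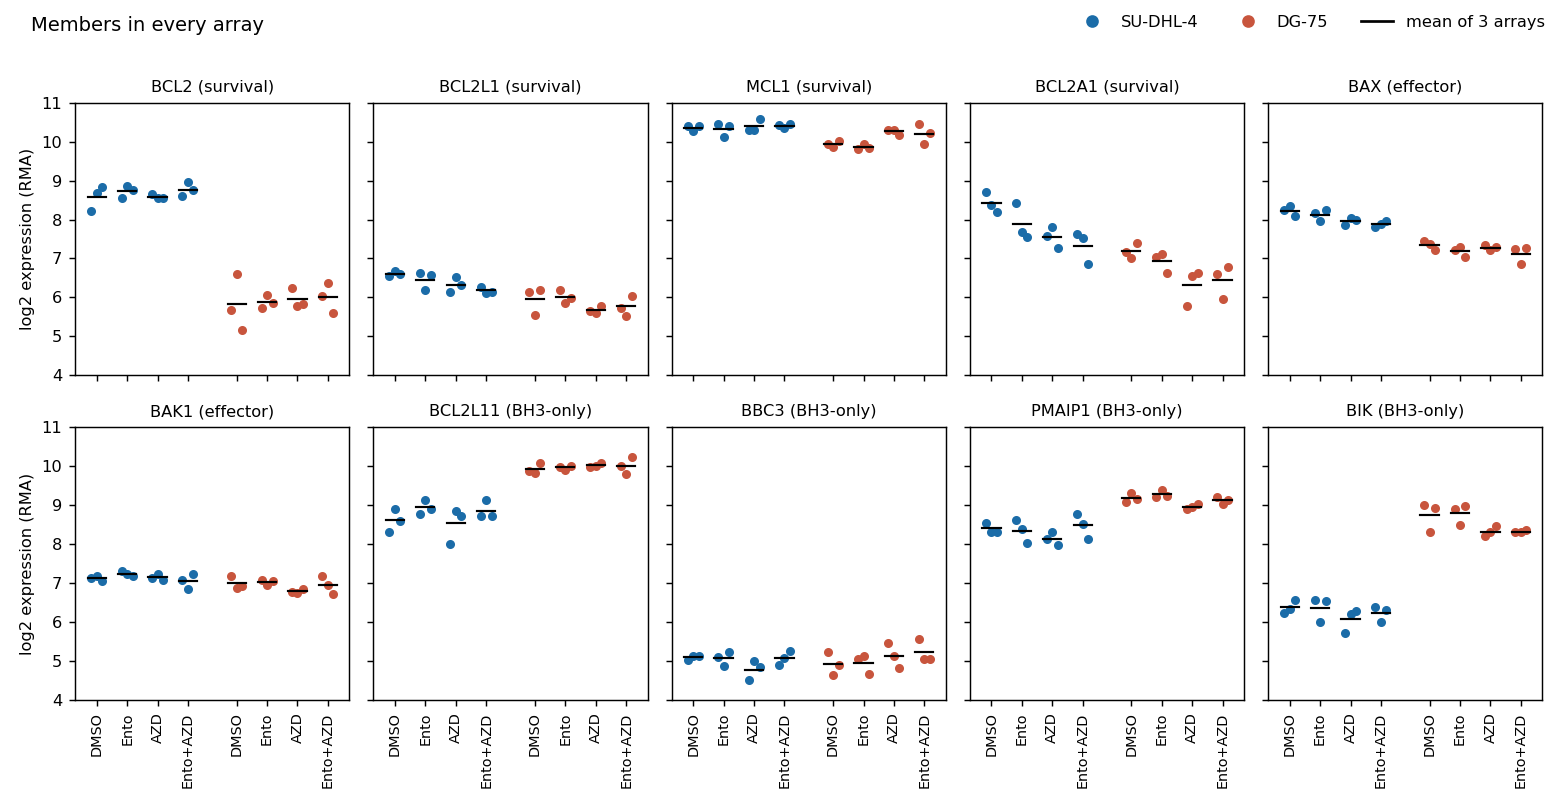
Log2 expression (RMA, vertical axis) of the 10 members in every array, with 1 point per array and a black line for the mean of 3 arrays, by exposure (horizontal axis) and line (colour). BCL2 sits between 8.23 and 8.95 in SU-DHL-4 and between 5.16 and 6.60 in DG-75, and BIK shows the opposite order.

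Under DMSO the difference between the lines was tested with limma over all 25575 rows, where a call required both a fold change over 2 and an adjusted p under 0.05. By this rule 4 of 10 members were called, against 7.2% of rows. Without the fold change minimum 8 of 10 had an adjusted p under 0.05, against 17.6% of rows. The median log2 difference of the members, SU-DHL-4 minus DG-75, was 0.29, beside 0.01 over all rows.

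BCL2, the founding survival gene of the family, was at 8.23, 8.67 and 8.83 in the DMSO arrays of SU-DHL-4 and at 5.69, 6.60 and 5.16 in those of DG-75. All SU-DHL-4 values lay above all DG-75 values, and the DG-75 arrays were widely spread. The log2 difference was 2.76 ± 0.256 (SE, n = 3 per line; adjusted p = 1.98e-08), a 6.79-fold higher level. The spread in DG-75 under DMSO (SD 0.73) was exceeded by 0.653% of rows, and the difference ranged from 2.43 to 3.16 over 14 other processing choices. Over the 4 exposures BCL2 had a median of 8.66 for SU-DHL-4 and 5.84 for DG-75, and 1.63 separated the lowest SU-DHL-4 array from the highest DG-75 array.

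BCL2A1, a survival gene known as an NF-κB target in B cells, was at 8.70, 8.38 and 8.20 in SU-DHL-4 under DMSO and at 7.16, 7.01 and 7.39 in DG-75. The groups did not overlap, and the log2 difference of 1.24 ± 0.269 (SE) passed the test (adjusted p = 0.00164). BCL2L1, which encodes BCL-XL, was higher in SU-DHL-4 by 0.64 (adjusted p = 0.0097), below the 2-fold limit. The same held for MCL1, whose short-lived protein is needed by most B cells, with a difference of 0.42 (adjusted p = 0.0339). Both were fragile to single arrays. Without DG-75 replicate 2 the BCL2L1 difference was 0.44 (adjusted p = 0.086), and the MCL1 adjusted p was 0.0539 to 0.105 without any 1 of the DMSO arrays other than SU-DHL-4 replicate 2.

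Of the effectors, BAX was at 8.24, 8.35 and 8.08 in SU-DHL-4 under DMSO and at 7.45, 7.38 and 7.23 in DG-75. It was higher in SU-DHL-4 by 0.87 ± 0.134 (SE, adjusted p = 3.6e-05), a 1.83-fold difference. Over all exposures it lay between 7.81 and 8.35 in SU-DHL-4 and between 6.85 and 7.45 in DG-75. BAK1, the other pore-forming effector, differed by 0.12 (95% interval -0.15 to 0.40, adjusted p = 0.62), and its ranges of 6.85 to 7.32 and 6.72 to 7.17 overlapped.

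Of the 4 BH3-only genes 3 were higher in DG-75. BIK, which encodes a BH3-only protein of the endoplasmic reticulum, was at 6.23, 6.33 and 6.57 in SU-DHL-4 under DMSO and at 9.01, 8.32 and 8.93 in DG-75. The lines were far apart, with a log2 difference of -2.38 ± 0.197 (SE, adjusted p = 3.38e-09), a 5.19-fold higher level in DG-75. BCL2L11, which encodes BIM, was at 8.32, 8.90 and 8.60 in SU-DHL-4 and at 9.88, 9.82 and 10.07 in DG-75. This difference of -1.32 ± 0.191 (SE, adjusted p = 1.63e-05) was also called.

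PMAIP1, which encodes the MCL1-binding protein NOXA, was at 8.55, 8.31 and 8.32 in SU-DHL-4 under DMSO and at 9.07, 9.32 and 9.16 in DG-75. The groups did not overlap, and the difference of -0.79 ± 0.16 (SE) had an adjusted p of 0.000843 without reaching 2-fold. BBC3, which encodes the p53 target PUMA, differed by 0.17 (95% interval -0.23 to 0.57, adjusted p = 0.654). Its arrays lay between 4.50 and 5.25 in SU-DHL-4 and between 4.64 and 5.56 in DG-75. These levels were near the array medians of 4.89 to 5.14, and BBC3 was among the rows under the median mean.

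The order of the lines was kept under the compounds for the members with large differences. Under Ento 3 members were called (8.03% of rows), under AZD 4 (6.51%) and under Ento+AZD 3 (7.28%). BCL2, BCL2L11 and BIK were called under each exposure in the fit of 8 groups. Under Ento, BCL2L11 at -1.03 fell below the 2-fold limit without SU-DHL-4 Ento replicate 1 (-0.95), with quantile normalization (-0.97) and with array medians subtracted (-0.93). The BCL2 difference was 2.64 to 2.84 over the 4 exposures, that of BIK was -2.42 to -2.09 and that of BCL2L11 was -1.49 to -1.03. BCL2A1 was called under DMSO and AZD, and the AZD difference of 1.23 went to 0.96 without DG-75 AZD replicate 1, below the 2-fold limit. Its differences of 0.96 under Ento and 0.89 under Ento+AZD had adjusted p-values of 0.012 and 0.0235 below the 2-fold limit. MCL1 differed by 0.13 under AZD (adjusted p = 0.626) and by 0.21 under Ento+AZD (adjusted p = 0.355).

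**Figure D2:**
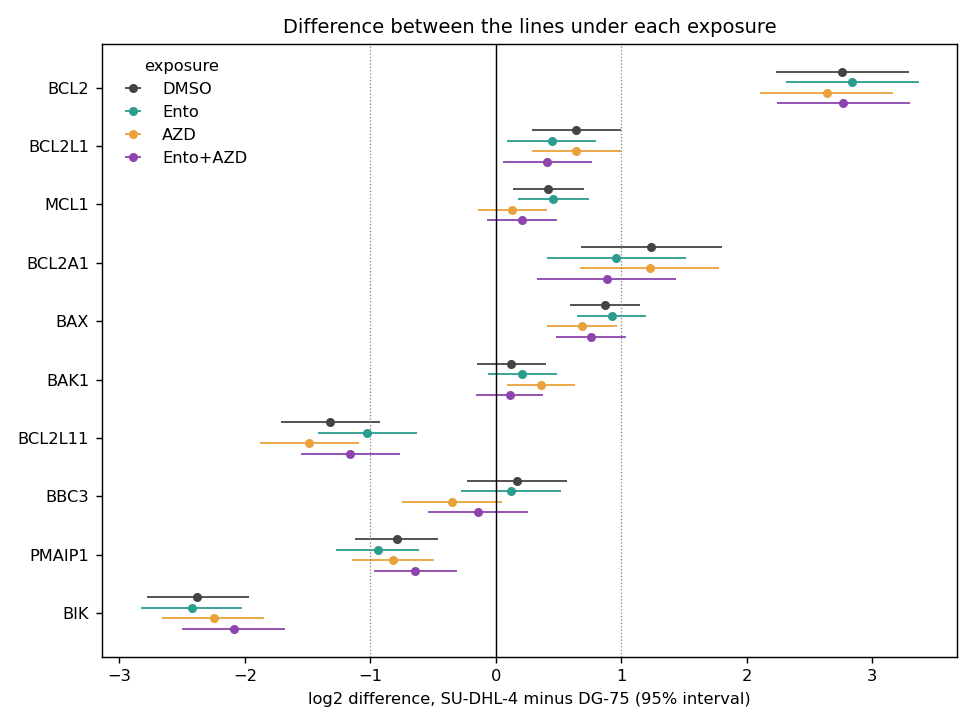
Log2 difference, SU-DHL-4 minus DG-75 (horizontal axis), of each member under the 4 exposures (colours), with 95% intervals from limma and dotted lines at a 2-fold difference. BCL2 lies at 2.64 to 2.84 and BIK at -2.42 to -2.09, while BAK1 lies between 0.11 and 0.36 and BBC3 between -0.35 and 0.17.

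With the replicate number taken as a batch term, 1 member passed both thresholds on exposure to the compounds, and without that term none did. BCL2A1 fell in SU-DHL-4 under Ento+AZD, and the other 9 members were called in no comparison with DMSO in either line. In this comparison 1 of 10 members was called, against 1.19% of rows (304 rows), or 1.09% lower. The median log2 change of the members was -0.04, beside -0.08 over all rows.

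BCL2A1 was at 8.70, 8.38 and 8.20 under DMSO in SU-DHL-4 and at 7.62, 7.53 and 6.85 under Ento+AZD. Every array of the combination lay below every DMSO array, and replicate 3 was the lowest. The log2 fold change was -1.09 ± 0.182 (SE, n = 3 per group; 95% interval -1.49 to -0.70; adjusted p = 0.0112), with 3 of 3 same-numbered arrays lower. The size stood close to the 2-fold limit. With array medians subtracted, which raised the median change of all rows by 0.13, it was -0.96 (adjusted p = 0.0155), and without the replicate term the adjusted p was 0.0959. The call was also lost without DMSO replicate 2, DMSO replicate 3 or Ento+AZD replicate 3 of SU-DHL-4, with values of 0 to 1 called members over the arrays and replicate numbers left out.

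Under the single agents BCL2A1 in SU-DHL-4 was at 8.43, 7.68 and 7.56 with Ento and at 7.58, 7.81 and 7.28 with AZD. The AZD arrays lay below all DMSO arrays, and the Ento arrays overlapped them through replicate 1. The log2 changes against DMSO were -0.53 (adjusted p = 0.469) with Ento and -0.87 (adjusted p = 0.0946) with AZD. Neither passed the test, and Ento+AZD differed from AZD by -0.22 (95% interval -0.62 to 0.17, adjusted p = 0.851). The AZD value had an adjusted p under 0.05 in 2 of 18 other processing choices, and was called in 0. These were a variance prior with trend (0.0197) and rows under the median mean left out (0.0474).

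In DG-75 BCL2A1 was at 7.16, 7.01 and 7.39 under DMSO, at 7.04, 7.11 and 6.63 under Ento, at 5.79, 6.55 and 6.64 under AZD and at 6.61, 5.95 and 6.78 under Ento+AZD. The AZD and Ento+AZD arrays all lay below the DMSO arrays. The log2 changes of -0.86 with AZD (adjusted p = 0.16) and -0.74 with Ento+AZD (adjusted p = 0.185) did not pass the test. They went to -0.55 without DG-75 AZD replicate 1 and to -0.45 without DG-75 Ento+AZD replicate 2. The response to Ento+AZD differed between the lines by -0.35 (95% interval -1.06 to 0.35, adjusted p = 0.92), so a difference between the lines was not shown.

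With both lines in 1 fit and line as an additive term, the change of BCL2A1 passed the adjusted p under AZD and under Ento+AZD but stayed below 2-fold. It was -0.86 ± 0.162 (SE, n = 6 per group; adjusted p = 0.00468) with AZD and -0.92 ± 0.162 (SE; adjusted p = 0.000899) with Ento+AZD. In both comparisons 6 of 6 same-numbered arrays were lower. The change with Ento was -0.40 (adjusted p = 0.732). No member was called over both lines under Ento (0.00782% of rows called), AZD (0.254%) or Ento+AZD (0.856%), and 1, 4 and 4 had an unadjusted p under 0.05 (6.36%, 18% and 21.1% of rows). BCL2A1 was the 1 member of 10 with an adjusted p under 0.05, against 4.66% of rows for AZD and 8.49% for Ento+AZD. The Ento+AZD value kept an adjusted p under 0.05 in 22 of 22 other processing choices (0.000223 to 0.0325), and the AZD value in 19 of 22. The AZD value lost it without replicate 1 (-0.67, adjusted p = 0.137) and without replicate 3 (-0.88, adjusted p = 0.0976) of both lines, and in limma's treat test for a change over 1.2-fold (adjusted p = 0.137). The 22 choices include that with no fold change minimum, which is the reported fit itself and could not change the adjusted p.

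**Figure D3:**
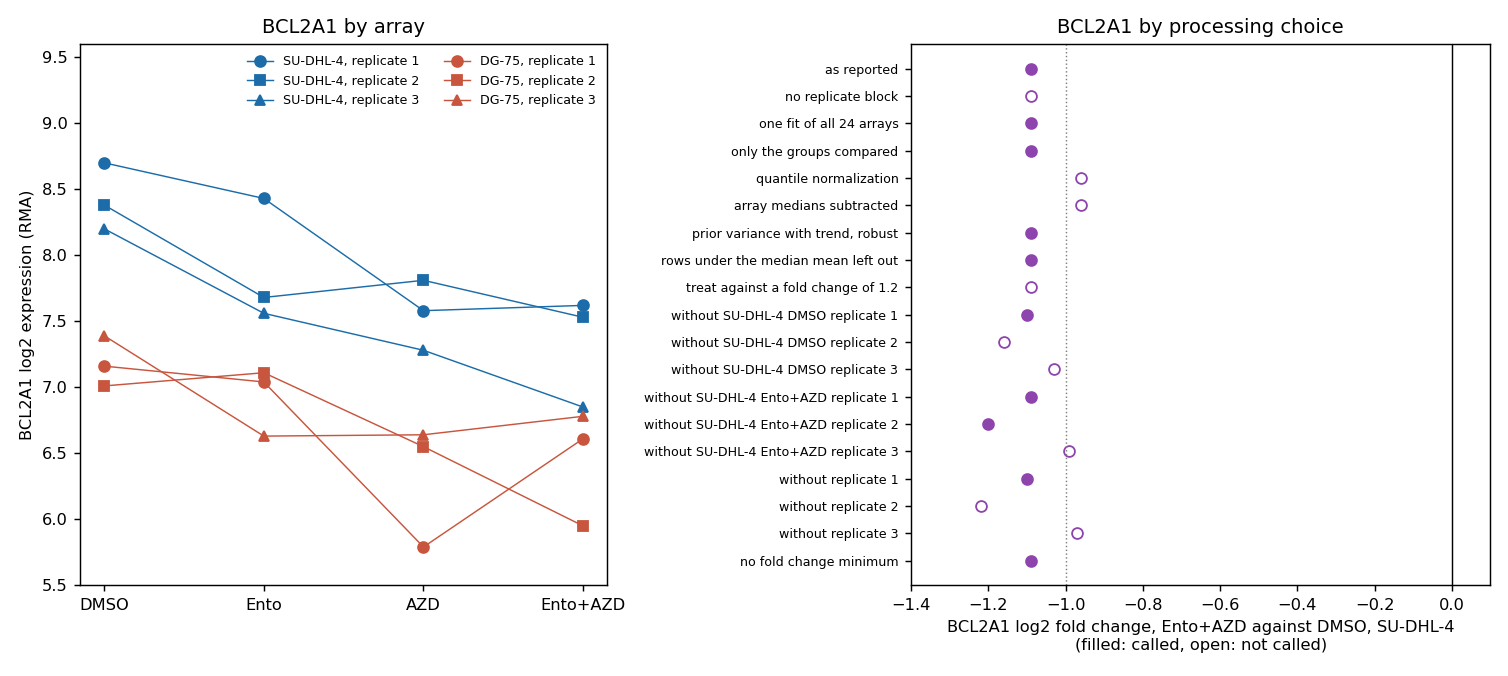
Left, log2 expression of BCL2A1 (vertical axis) by exposure, with 1 line per replicate number and cell line. Right, its log2 fold change in SU-DHL-4 under Ento+AZD as reported and under 18 other processing choices, filled where called, with a dotted line at 2-fold and all values between -1.22 and -0.96.

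None of the other members was called in any comparison with DMSO, with limma and adjustment over all rows. Over both lines 3 of them reached an adjusted p under 0.05 under some other processing choices, all below 2-fold. Under AZD this held for BIK (lowest adjusted p = 0.0366) and BCL2L1 (lowest adjusted p = 0.0428) without SU-DHL-4 AZD replicate 2 or without replicate 2 of both lines, and for BIK also with the rows under the median mean left out. Under Ento+AZD, with those rows left out, it held for BCL2L1 (adjusted p = 0.0314) and BAX (adjusted p = 0.0255). It also held there for BCL2L1 without DG-75 DMSO replicate 2 (adjusted p = 0.0372) and for BAX without DG-75 Ento+AZD replicate 3 (adjusted p = 0.0384). No member at all was called under Ento in SU-DHL-4 (0.0508% of rows called) or DG-75 (0.00391%), under AZD in SU-DHL-4 (0.18%) or DG-75 (0.18%), or under Ento+AZD in DG-75 (0.833%). At an unadjusted p under 0.05 these 5 comparisons had 1, 0, 1, 3 and 2 members in that order, against 8.59%, 2.81%, 11.5%, 13.8% and 16% of rows. With 3 arrays per group and adjustment over all rows, a change whose 95% interval left out 0 could still miss the call, as with BCL2A1 in SU-DHL-4 under AZD (-0.87, 95% interval -1.27 to -0.48, adjusted p = 0.0946).

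Among the survival genes, BCL2 in SU-DHL-4 was at 8.60, 8.95 and 8.75 under Ento+AZD, overlapping the DMSO arrays, with a change of 0.19 (95% interval -0.16 to 0.53). In DG-75 its change was 0.18 (95% interval -0.38 to 0.74) and its arrays also overlapped. BCL2L1 in SU-DHL-4 was at 6.56, 6.67 and 6.61 under DMSO, at 6.13, 6.52 and 6.31 under AZD and at 6.28, 6.12 and 6.14 under Ento+AZD. Both sets of arrays lay below DMSO, and the changes of -0.29 (adjusted p = 0.547) and -0.43 (adjusted p = 0.257) did not pass the test. Over both lines BCL2L1 differed by -0.32 under Ento+AZD, with 6 of 6 same-numbered arrays lower and an adjusted p of 0.0739.

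MCL1 in DG-75 was at 9.95, 9.87 and 10.01 under DMSO and at 10.31, 10.30 and 10.17 under AZD. The groups did not overlap, as in 4.5% of all rows in this direction, and the log2 difference was 0.32 (95% interval 0.00 to 0.64, adjusted p = 0.361). In SU-DHL-4 the difference under AZD was 0.04 (95% interval -0.26 to 0.34). The difference between these responses was -0.28 (adjusted p = 0.908).

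Of the effectors, BAX in SU-DHL-4 was at 7.81, 7.88 and 7.95 under Ento+AZD, below its DMSO arrays, with a change of -0.34 (adjusted p = 0.319). Over both lines the value was -0.29 (adjusted p = 0.0675). BAK1 differed from DMSO by -0.21 to 0.12 over the compounds and lines, and no value passed the test. In SU-DHL-4 under AZD 5 of 10 members (BCL2L1, BCL2A1, BAX, BBC3 and PMAIP1) had all arrays below DMSO, against 12.9% of rows. Apart from BCL2A1 these separations were narrow. The highest AZD and lowest DMSO arrays were at 6.52 and 6.56 for BCL2L1 and at 8.05 and 8.08 for BAX. For BBC3 they were at 5.00 and 5.03, and for PMAIP1 both at 8.31. BCL2L1, BAX, BBC3 and PMAIP1 had adjusted p-values of 0.485 to 0.558 in limma's test. Median subtraction shifted the typical row here by 0.12, and overlap was counted on the deposited values only. Under Ento+AZD all arrays lay below DMSO for 3 (BCL2L1, BCL2A1 and BAX), against 16% of rows. In DG-75 this held for 3 under AZD (BCL2A1, BAK1 and PMAIP1, against 14.6% of rows) and for BCL2A1 under Ento+AZD (14%). The highest AZD and lowest DMSO arrays of DG-75 were also close for BAK1 (6.84 and 6.88) and PMAIP1 (9.02 and 9.07).

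Of the BH3-only genes, BIK in DG-75 was at 8.20, 8.31 and 8.46 under AZD and at 8.30, 8.30 and 8.35 under Ento+AZD. These arrays overlapped the DMSO arrays through DMSO replicate 2, and the changes of -0.43 (adjusted p = 0.261) and -0.44 (adjusted p = 0.214) did not pass the test. Over both lines BIK differed by -0.37 under AZD, with 6 of 6 same-numbered arrays lower and an adjusted p of 0.094. PMAIP1 differed by -0.25 under AZD over both lines (6 of 6 lower, adjusted p = 0.155) and by 0.01 under Ento+AZD.

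BCL2L11 in SU-DHL-4 was at 8.78, 9.14 and 8.89 under Ento, overlapping its DMSO arrays. Its change of 0.33 (95% interval -0.01 to 0.68, adjusted p = 0.598) did not pass the test, although 3 of 3 same-numbered arrays were higher. In DG-75 BCL2L11 differed from DMSO by 0.05 to 0.10 over the compounds. BBC3 differed by -0.31 under AZD in SU-DHL-4 and by 0.21 in DG-75, and the difference of these responses was -0.52 (95% interval -0.98 to -0.06, adjusted p = 0.756).

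**Figure D4:**
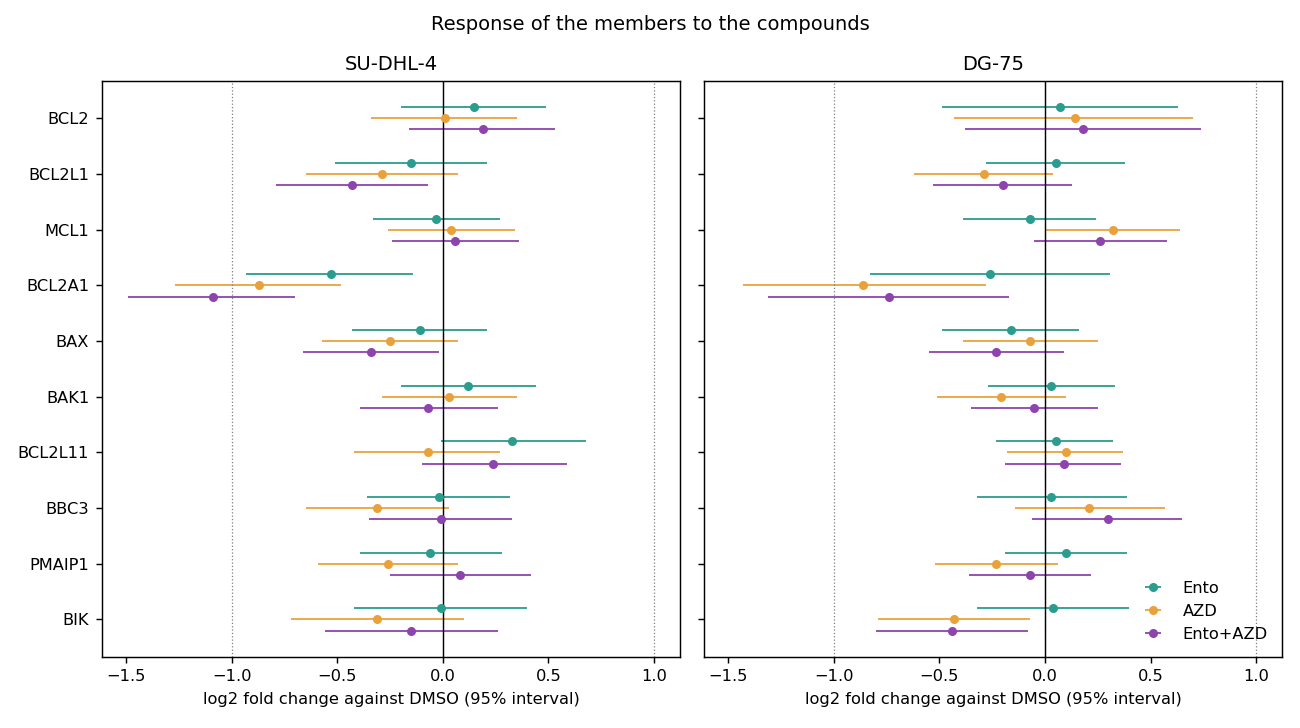
Log2 fold change against DMSO (horizontal axis) with 95% intervals for each member under Ento, AZD and Ento+AZD (colours), in SU-DHL-4 (left) and DG-75 (right), with dotted lines at 2-fold. BCL2A1 reaches -1.09 under Ento+AZD in SU-DHL-4, and no other value passed the test.

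The comparisons between compounds called no member. In SU-DHL-4 this held for Ento+AZD against Ento (0.0821% of rows called), Ento+AZD against AZD (0.0274%) and AZD against Ento (0.379%). Each had 1 member at an unadjusted p under 0.05, against 9.67%, 7.03% and 9.77% of rows. In DG-75 the same comparisons called 0.657%, 0% and 0.344% of rows, with 2, 0 and 5 members at an unadjusted p under 0.05 (14.8%, 4.03% and 14.1% of rows). The 5 in DG-75 for AZD against Ento were BCL2L1, MCL1, BCL2A1, PMAIP1 and BIK, with adjusted p-values of 0.211 to 0.344.

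For additivity, both single-agent changes were summed and compared with the change under the combination. No member was called for a departure from this sum in either line, and neither was any other row (0% called in both lines). At an unadjusted p under 0.05 there were 0 members in each line, against 4.99% of rows for SU-DHL-4 and 2.63% for DG-75. For BCL2A1 the departure was 0.31 (95% interval -0.25 to 0.87) in SU-DHL-4 and 0.38 (95% interval -0.43 to 1.19) in DG-75, intervals that include both a sum of effects and sizeable departures. No member was called for a difference between the lines in its response to Ento (0.00782% of rows called), AZD (0%) or Ento+AZD (0.0352%). At an unadjusted p under 0.05 there were 0, 1 and 0 members in that order, against 4.43%, 6.16% and 6.51% of rows.

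Other apoptosis genes were taken from 6 lists, of which 62 genes on the array are reported here. In the fit of both lines under Ento+AZD 9 of them had an adjusted p under 0.05, against 8.49% of all rows (1.46% higher and 7.03% lower), and 1 was also over 2-fold. TP53INP1, a p53-inducible gene, rose by 1.2 (adjusted p = 0.000402), and in the single lines its change was 1.44 in DG-75 (adjusted p = 0.0162) and 0.96 in SU-DHL-4 (adjusted p = 0.00635). Of the 11 genes of p53 and its targets 2 rose at the adjusted p and 0 fell, with a median of 0.08, beside -0.07 over all rows. The second was ZMAT3, with 0.44 (adjusted p = 0.042), and the other 9 did not pass. Over both lines TP53INP1 kept its adjusted p under 0.05 in 21 of 21 other processing choices and ZMAT3 in 7. The call of TP53INP1 in DG-75 held in 12 of 18, and its adjusted p in SU-DHL-4 stayed under 0.05 in 12 of 17.

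The inhibitor of apoptosis proteins had 1 of 7 genes lower at the adjusted p (median -0.08), against 7.03% of rows lower. This was BIRC5, encoding survivin, which is best known for its role in cell division, with -0.91 (adjusted p = 0.000313). Of the 13 other BCL2 family genes 2 were lower and 0 higher (median -0.18). These were BNIP3, a mitophagy gene induced by hypoxia, with -0.88 (adjusted p = 0.00796), and BID, which links death receptors to mitochondria, with -0.67 (adjusted p = 0.00123). Of the 13 apoptosome and caspase genes 2 were lower (median -0.14), namely HTRA2, a mitochondrial protease gene, with -0.42 (adjusted p = 0.0209) and DFFB, which encodes the nuclease that cuts DNA in apoptosis, with -0.40 (adjusted p = 0.0445). Of the 10 death receptor genes 1 was lower (median -0.11), namely CFLAR, which encodes the caspase-8 inhibitor FLIP, with -0.45 (adjusted p = 0.0398). Of the 8 genes for MCL1 and BIM turnover 1 was lower (median -0.05), namely the deubiquitinase gene USP13 with -0.52 (adjusted p = 0.0215). Over 21 other processing choices BIRC5 stayed under the adjusted p in 21, BID in 20 and BNIP3 in 17, but HTRA2 in 12, USP13 in 11, CFLAR in 5 and DFFB in 4.

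Under AZD over both lines 5 of the 62 genes passed the adjusted p, against 4.66% of rows, and none was over 2-fold. CFLAR fell by 0.82 (adjusted p = 0.00214), BIRC5 by 0.65, BID by 0.48 and BAD, which encodes a BH3-only protein, by 0.38, and TP53INP1 rose by 0.68 (adjusted p = 0.045). By line TP53INP1 was called under AZD in DG-75 with 1.22 (adjusted p = 0.0487), and its value for SU-DHL-4 was 0.15 (adjusted p = 0.746). The test of the difference between these responses gave -1.07 with an adjusted p of 0.285, so a difference was not shown. In SU-DHL-4 alone CFLAR was called under AZD with -1.14 (adjusted p = 0.0325). Both single-line calls were fragile: over 18 other processing choices that of CFLAR held in 6 (-1.28 to -0.92) and that of TP53INP1 in 4 (1.16 to 1.39). In the fit of both lines, CFLAR kept its adjusted p in 19 of 21, BIRC5 in 15, BID in 9, TP53INP1 in 8 and BAD in 4. Medians over the lists were -0.26 for the inhibitor of apoptosis proteins and between -0.15 and -0.10 for the other 5 lists, beside -0.07 over all rows.

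**Figure D5:**
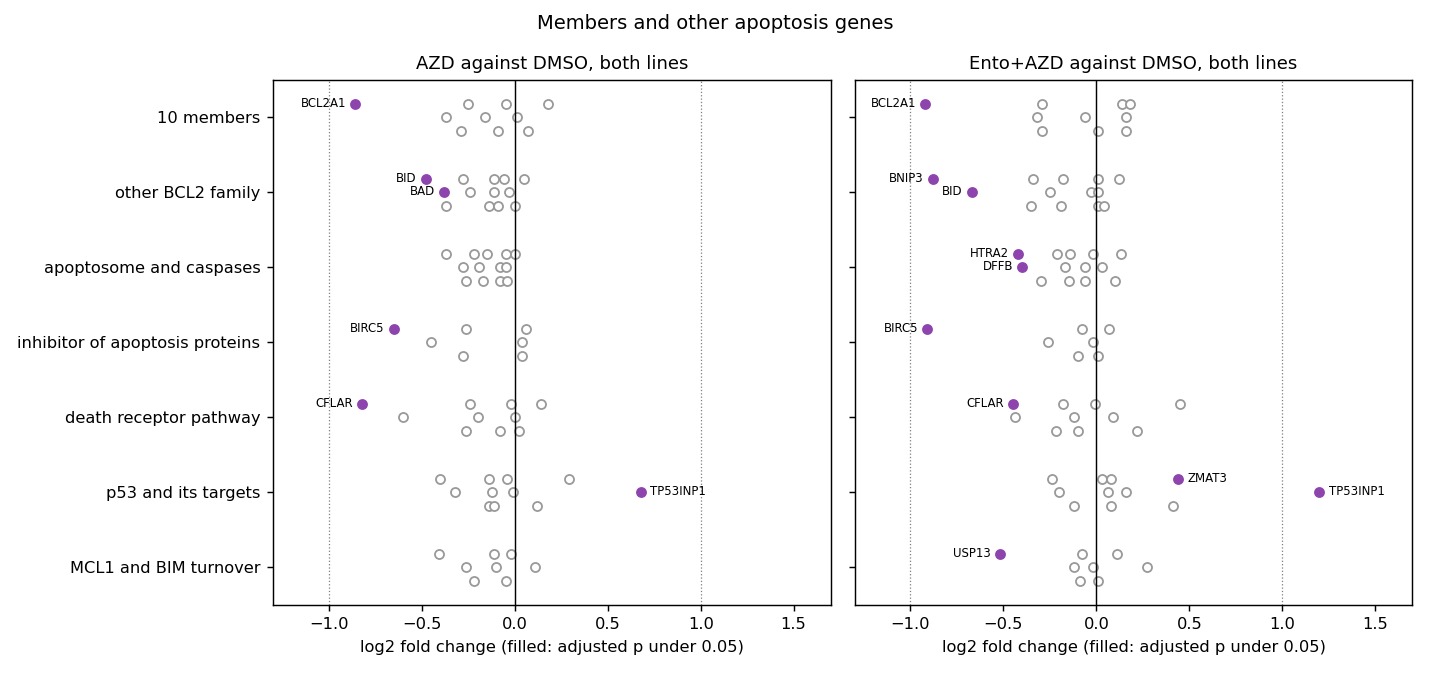
Log2 fold change (horizontal axis) of the 10 members and of 62 other apoptosis genes in 6 lists (rows) over both lines, for AZD (left) and Ento+AZD (right), with 1 point per gene, filled where the adjusted p is under 0.05. Points are offset vertically for legibility. Most points lie within 0.5 of 0, and TP53INP1 at 1.2 is the point beyond the dotted 2-fold lines.

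Between the lines under DMSO, 9 of the 62 genes were called, against 7.2% of rows. Higher in DG-75 were SESN1 (-2.77), a stress-response gene, NAIP (-2.26), BIRC3 (-1.75), the death receptor genes FAS (-2.03) and TNFRSF1A (-1.5), and MDM2 (-1.02). Higher in SU-DHL-4 were TP53INP1 (1.47), FOXO1 (1.26) and GADD45A (1.03). None of the 13 other BCL2 family genes was called, and BCL2L2, a survival gene, was the 1 that passed the adjusted p, with -0.63 (adjusted p = 0.0171), against 17.6% of rows. Over the other processing choices 7 of the 9 calls held in each, whereas MDM2 was called in 11 of 14 and GADD45A in 12 of 14, and BCL2L2 passed in 9 of 13. The median over these 13 was 0.06, beside 0.01 over all rows.

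The genes whose values ran most closely with each member over the 24 arrays, after removing the mean of each line, are given as a description, because arrays of a group share their exposure. For BCL2A1 these were the cytidine deaminase genes APOBEC3G (r = 0.887) and APOBEC3D (r = 0.882). For BCL2L1 they were PPP4R1 (r = 0.925) and TTC9 (r = 0.898), and for BIK THUMPD1 (r = 0.918) and CABLES2 (r = 0.914). BCL2L11 ran with ATG7 (r = 0.884) and the microRNA gene MIR29A (r = 0.875), and MCL1 with UCP2 (r = 0.846) and TSPYL2 (r = 0.802). For BCL2, BAX, BAK1, BBC3 and PMAIP1 the highest values were 0.757 to 0.792.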

How the data were processed

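The deposited table held log2 expression values of 25575 rows for 24 Clariom D arrays. Per the study's methods, the authors normalized them by RMA and mapped probes to genes with affycoretools; the build of the array annotation is not given in the sources used here, so coordinates come from RefSeq (GRCh38.p14). Every value column matched a sample label (0 left over), and no arrays held identical values. The members and gene lists were chosen with earlier results of these data known.

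Log2 values were tested with limma 3.58.1 under R 4.3.3 by lmFit, contrasts.fit and eBayes, with Benjamini-Hochberg adjustment over all rows. Each line was fitted alone, with treatment and replicate number 1 to 3 as batch term. This is an assumption: the study's methods name a batch term without defining it, and the labels give only a number. The fit of both lines added a line term with replicate number within line. Lines were compared in 1 fit of 8 groups without a batch term. Calls required an adjusted p under 0.05 and a fold change over 2. All 10 members are named. Some listed genes are not reported here, for a reason unrelated to their values, and list counts and medians leave them out. Other listed genes are described for AZD and Ento+AZD against DMSO and for the lines under DMSO. They are named there where called or among the 3 of their list with the largest change. Any calls of listed genes between compounds or under Ento alone are not given. The microarray gives no depth, and the number of arrays limits precision. The code was checked on simulated data with independent noise and planted changes larger than the compounds gave any member. That check does not measure power for the changes reported here. Alternatives covered the replicate term, the arrays fitted, normalization, low rows, the variance prior, thresholds and omission of arrays. The alternative with no fold change minimum is the reported fit itself, so a call always holds in it.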

Additional observations from a re-analysis of the deposited data

Results flagged for a closer look

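BAK1 under AZD drew attention because its 3 same-numbered differences from DMSO were all above 0 in SU-DHL-4 and all below 0 in DG-75. The log2 change was 0.03 in SU-DHL-4, with -0.04 to 0.18 over the other processing choices, whereas it was -0.21 in DG-75. The difference between these responses was 0.24 (95% interval -0.16 to 0.63), and limma's test of it gave an adjusted p of 0.927.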

How the results depend on the processing

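The fits within a line and over both lines used the replicate number as a batch term, although the labels do not tie it to a batch and not every same-numbered pair correlated over 0.1. Deviations from the group means correlated at -0.11 to 0.39 between same-numbered arrays in SU-DHL-4 (median 0.15) and at -0.35 to 0.34 in DG-75 (median 0.04). Between arrays of different numbers they correlated at -0.29 to 0.11 (median -0.07) and at -0.41 to 0.36 (median -0.01). With no replicate block the number of members called in SU-DHL-4 under Ento+AZD went from 1 to 0 (BCL2A1 adjusted p = 0.0959), and all rows called went from 304 to 45. It also went to 0 with quantile normalization (-0.96, adjusted p = 0.0122), with array medians subtracted (-0.96, adjusted p = 0.0155), both by size, and with treat, limma's test for a change over 1.2-fold (adjusted p = 0.0522). Leaving out arrays gave 0 to 1, with 0 without DMSO replicate 2, DMSO replicate 3 or Ento+AZD replicate 3 of SU-DHL-4, or without all arrays numbered 2 or 3. Over 18 alternatives the BCL2A1 value was negative in 18 and called in 9. Those that kept the compared arrays and their values left it at -1.09, so their sign could not change. The alternative with no fold change minimum was the reported fit itself, so its call was fixed in advance.

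Over both lines BCL2A1 became the 1 member called with no fold change minimum, under AZD and under Ento+AZD. The same count of 1 came under Ento+AZD from the treat test, and leaving out arrays gave 0 to 1 in both comparisons, with 1 without replicate 2 (AZD) or without DG-75 Ento+AZD replicate 1 (Ento+AZD). Between the lines, no fold change minimum gave 8 members under DMSO, 7 under Ento, 7 under AZD and 6 under Ento+AZD. The treat test gave 5 under Ento, and leaving out arrays gave 3 to 5 there, with 5 without SU-DHL-4 Ento replicate 2, while it gave 3 to 4 under AZD and 3 to 4 under Ento+AZD. The causes were not tested. No called value of a member changed sign, nor did any value of another listed gene given in the report as called or under the adjusted p. Uncalled member values near 0 did, such as BCL2 in DG-75 under AZD (0.14, range -0.13 to 0.62) and BAK1 in SU-DHL-4 under AZD (0.03, range -0.04 to 0.18). Using another row of a symbol was not run, since each member has 1 row.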
